A study of Mus musculus with 6 samples.

Results

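The variable genes of the immunoglobulin heavy chain locus (Ighv genes) were followed in RNA from mouse small intestinal mucosa, as every gene whose symbol begins with Ighv and a number. Of the 38561 genes in each count table, 108 met this rule. Each of 6 pools, 3 per genotype, held polyA RNA from 3 C57BL/6J mice of both sexes aged 8 to 12 weeks. The pools labelled Rbm47_IKO (Rbm47-IKO here) came from mice with floxed alleles of Rbm47, which encodes an RNA-binding protein, deleted by a constitutive Cre under the Villin promoter. That promoter is active in gut epithelium, so that the deletion was directed at epithelial cells and not at the B lineage cells that make heavy chain transcripts. The control pools are labelled wt, and the study's methods describe its controls as floxed mice. Both genotypes share the strain, the tissue and the library protocol.

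A heavy chain is assembled from a variable (V), a diversity (D) and a joining (J) segment, joined in each developing B cell, and is then expressed with a constant region that sets the antibody class. The V segment holds most of the antigen-binding surface, and related V genes are grouped into families by sequence. Plasma cells of the intestinal lamina propria secrete mostly IgA, whose heavy chain constant gene is Igha. The spread of counts over V genes in bulk RNA therefore depends on how many antibody-secreting cells carry each V gene and on how much heavy chain RNA each makes. Fewer cells of a type and less RNA per cell cannot be told apart in such samples.

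The targeted gene, Rbm47, was measured first. Its level in CPM (counts scaled to library size, here with TMM factors) was 603, 625 and 620 for the libraries labelled Rbm47-IKO, against 460, 450 and 472 for the controls (edgeR quasi-likelihood test, log2 fold change 0.42, SE 0.10, Benjamini-Hochberg adjusted p = 0.0751; DESeq2 adjusted p = 0.00105). It was therefore higher in all 3 pools whose label names a deletion, and DESeq2 called it. Whether the labels are right, and whether the counts cover a part of the gene that was not deleted, was not tested. Each direction is between the libraries labelled Rbm47-IKO and those labelled wt. Library totals ran from 31560320 to 38951830 counts. Epithelial markers were abundant in all 6 pools, with 18345 to 22080 summed CPM over 7 genes. Smooth muscle markers varied widely within both genotypes, from 382 to 3381 summed CPM over 6 genes in the Rbm47-IKO pools and from 92.4 to 2587 in the control pools. Their part in the results below was not tested.

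All 108 members lie on chromosome 12 of GRCm38, in 1 locus from 113574242 to 116000461, and 106 of them are on the minus strand. GENCODE M21 annotates 104 as V genes, 2 as V pseudogenes and 2 under another immunoglobulin class. Of the 185 Ighv symbols in that annotation, 70 are pseudogenes. For 3 members (Ighv13-2, Ighv6-7 and Ighv1-16) the position in the count tables did not overlap the M21 position of their gene ID, so that their names are uncertain. The lowest coordinates lie nearest to the joining segments, which are at chr12:113428514-113429833.

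Members resemble each other closely, which bears on how reads were assigned. The median identity of a member to its nearest other member was 94.7% of the shorter transcript, and 50 members had a neighbour at 95% or more. Windows of 50 bases found in no transcript of another gene made up a median of 79.1% of the windows of the tested members and 75.1% of those of the untested ones. For the 8 members with 0 counts in every pool this median was 37.1%. Across the 108 members, the share of unique windows had a Spearman's rho of 0.05 with the total count, given as a description because related members share sequence. Ighv1-62-2 and Ighv1-71, which are 99.7% identical, both had 0 counts in all 6 pools, and whether reads that fit both were counted is not stated in the sources used here.

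The 3′ ends of the V segments of members named for their level or for their difference between genotypes are shown because this is where the joining of V to D takes place and where families differ or agree. The last 60 bases are given 5′ to 3′ from the GENCODE M21 transcripts (GRCm38, minus strand). The capitals mark the cysteine codon that ends framework region 3 and the 6 bases after it, or as many as the transcript holds.
Ighv1-81 (chr12:115920279-115920338): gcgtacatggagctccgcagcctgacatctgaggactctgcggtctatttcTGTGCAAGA
Ighv1-39 (chr12:114914599-114914658): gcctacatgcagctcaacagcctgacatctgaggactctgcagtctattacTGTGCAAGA
Ighv1-9 (chr12:114583569-114583628): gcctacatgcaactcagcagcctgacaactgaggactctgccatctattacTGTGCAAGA
Ighv1-76 (chr12:115847881-115847940): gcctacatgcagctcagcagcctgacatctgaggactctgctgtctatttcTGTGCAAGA
Ighv5-17 (chr12:113859149-113859208): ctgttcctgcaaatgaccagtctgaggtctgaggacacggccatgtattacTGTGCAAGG
Ighv5-4 (chr12:113597446-113597505): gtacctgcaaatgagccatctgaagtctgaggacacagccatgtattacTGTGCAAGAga
Ighv5-12 (chr12:113702124-113702183): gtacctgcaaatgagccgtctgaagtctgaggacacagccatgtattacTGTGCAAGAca
Ighv3-6 (chr12:114288152-114288211): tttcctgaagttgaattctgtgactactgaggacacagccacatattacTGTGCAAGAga
Ighv9-3 (chr12:114140692-114140751): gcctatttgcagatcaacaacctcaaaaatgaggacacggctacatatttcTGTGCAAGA
Ighv14-2 (chr12:113994469-113994528): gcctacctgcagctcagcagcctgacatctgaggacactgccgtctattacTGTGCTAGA
Ighv6-3 (chr12:114391712-114391771): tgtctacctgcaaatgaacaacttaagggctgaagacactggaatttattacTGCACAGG
Ighv2-5 (chr12:113685482-113685541): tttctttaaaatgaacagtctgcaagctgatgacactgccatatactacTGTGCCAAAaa
The motif TGTGCAAGA, searched on the coding strand within the last 15 bases, was present in 59 of the 108 members (54.6%). Among all 218 V genes of the immunoglobulin loci in M21 the share was 28.0%. That set includes the 104 members annotated as V genes, so its share is not that of V genes outside the members. The motif is found in members of the Ighv1, Ighv3, Ighv5 and Ighv9 families alike. Ighv2-5, Ighv14-2, Ighv6-3 and Ighv5-17 carry other bases there.

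Heavy chain V transcripts were a small part of these libraries. The 108 members together had 1796, 4532 and 3806 counts in Rbm47-IKO pools 1, 2 and 3, and 5432, 4459 and 4803 counts in control pools 1, 2 and 3. As summed normalised CPM this was 51.9, 120 and 117 against 160, 117 and 132. Rbm47-IKO pool 1 was the lowest of the 6, the other two Rbm47-IKO pools lay beside control pool 2, and the genotypes overlapped. The means were 96.0 ± 38.3 and 136 ± 21.5 (SD, n = 3 each), a log2 ratio of -0.51. Without Rbm47-IKO pool 1 the log2 ratio was -0.21. The sum is a description and was not tested.

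**Figure D1:**
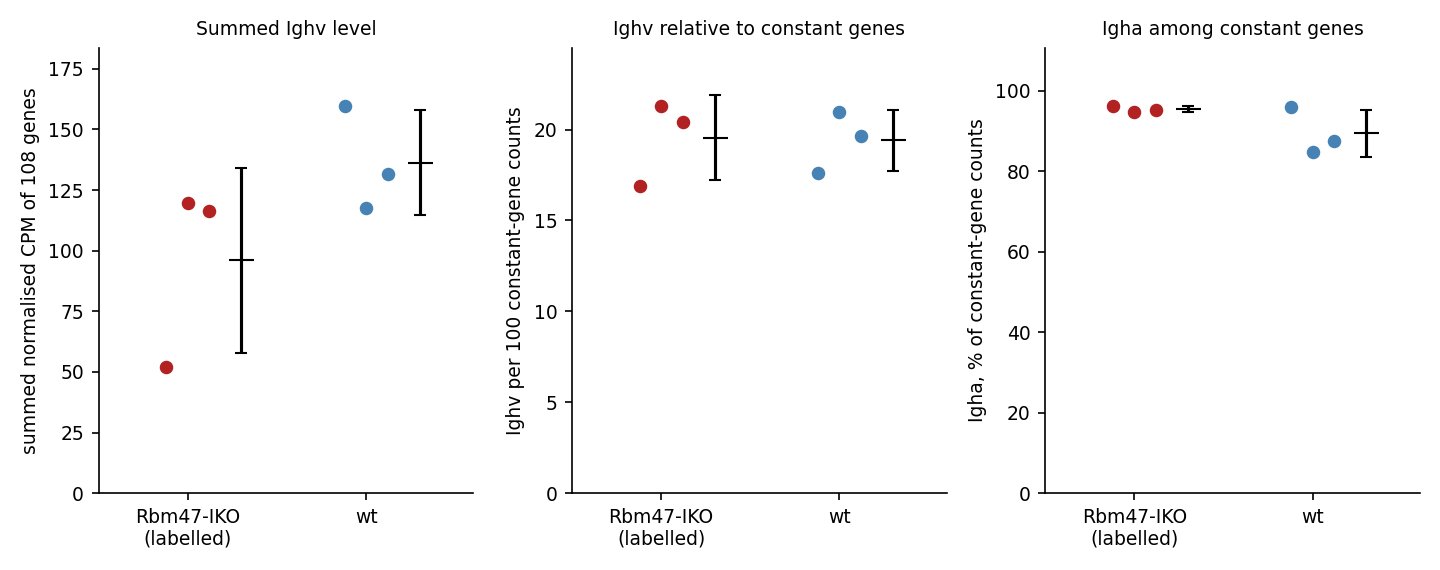
Summed Ighv level in normalised CPM, Ighv counts per 100 counts on heavy chain constant genes, and the share of Igha among those constant genes in percent, each axis starting at 0. Each point is 1 pool, red for the pools labelled Rbm47-IKO and blue for wt, and the bars give the mean and SD of 3 pools. Rbm47-IKO pool 1 is lowest both in Ighv level (51.9 CPM, against 117 to 160 in the other pools) and in the ratio to constant genes (16.9 per 100, against 17.6 to 21.3).

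The V gene counts stood in a similar ratio to the constant gene counts in all 6 pools. Ighv counts per 100 counts on the 7 constant genes in the tables were 16.9, 21.3 and 20.4 in the Rbm47-IKO pools and 17.6, 20.97 and 19.6 in the control pools. The group means of 19.6 ± 2.33 and 19.4 ± 1.68 differed by less than the spread between pools. Igha, the constant gene of IgA, had 295, 532 and 544 normalised CPM against 870, 475 and 587 (edgeR quasi-likelihood test, log2 fold change -0.50, SE 0.29, Benjamini-Hochberg adjusted p = 0.466). It held 96.3%, 94.7% and 95.3% of the constant gene counts in the Rbm47-IKO pools and 96.0%, 84.8% and 87.5% in the control pools, so that control pools 2 and 3 stood apart from the other 4. In those 2 pools Ighg2b, the constant gene of IgG2b, had 2285 and 2046 counts, against 392 in control pool 1 and 166, 400 and 261 in the Rbm47-IKO pools. These counts overlap between genotypes. As normalised CPM, 4.79, 10.6 and 7.99 in the Rbm47-IKO pools against 11.5, 60.2 and 56.1 in the control pools, they did not overlap, with Rbm47-IKO pool 2 close to control pool 1, and the change did not pass the edgeR threshold (edgeR log2 fold change -2.45, SE 0.59, Benjamini-Hochberg adjusted p = 0.0778; DESeq2 adjusted p = 0.0146).

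Cells that make or surround these transcripts were read from marker lists in the same fit. Of the 6 constant genes tested 0 passed the edgeR threshold, 3 had an unadjusted p under 0.05 and DESeq2 called 2 lower, Ighg2b and Ighg2c. All 6 had a log2 fold change below 0 (median -1.31). Besides Igha and Ighg2b, these were Ighm at -0.65, Ighg1 at -1.24, Ighg3 at -1.38 and Ighg2c at -2.44, while Ighe, with at most 4 counts in a pool, was not tested. The CPM overlapped between genotypes for Igha, Ighg1 and Ighg2c, and not for Ighm, Ighg2b and Ighg3. Ighg2c had 5, 10 and 15 counts against 8, 99 and 68 (edgeR quasi-likelihood test, Benjamini-Hochberg adjusted p = 0.187). Ighg1 had 24, 38 and 41 counts against 168, 33 and 43. The 4 joining segments all had values below 0 as well (median -1.03), with 0 calls in edgeR, 2 at an unadjusted p under 0.05 and 2 called lower by DESeq2, Ighj1 and Ighj2. The 12 B cell genes had a median of -0.80 and all lay below 0, with 0 calls in edgeR and in DESeq2 and 0 at an unadjusted p under 0.05. The 12 plasma cell genes had a median of -0.27 and 11 lay below 0, with 0 calls in edgeR. Of these 1 had an unadjusted p under 0.05 and was called by DESeq2, Ell2, an elongation factor that plasma cells share with other secretory cells. Over all 16425 genes tested the median was -0.01. Of these genes edgeR called 1.25% lower and 1.45% higher, and DESeq2 3.51% lower and 4.06% higher. At an unadjusted edgeR p under 0.05, 8.21% were lower and 8.57% higher. These shares stand beside every marker list named here and below.

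Summed over its 12 genes, the B cell list had 11.0, 32.2 and 31.9 CPM in the Rbm47-IKO pools and 45.2, 31.6 and 55.9 CPM in the control pools, an order in which Rbm47-IKO pool 1 was again lowest. Ms4a1, Cd79a and Pax5 of this list were detected in all 6 pools. Cd79a, a signalling chain of the B cell receptor, had 0.664, 1.98 and 2.30 CPM against 2.38, 2.32 and 3.21 CPM (edgeR log2 fold change -0.68, SE 0.45, Benjamini-Hochberg adjusted p = 0.523). The plasma cell list, which also holds genes of secretory epithelium, summed to 583, 644 and 546 CPM against 687, 603 and 648. Jchain, which links IgA into dimers, had 52.2, 97.2 and 86.9 CPM against 134, 79.7 and 108 (edgeR log2 fold change -0.44, SE 0.26, Benjamini-Hochberg adjusted p = 0.468). The part of these cell types in the Ighv values was not tested.

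Germinal centre genes had a median of -0.57 over 7 tested genes, follicle and Peyer's patch genes -0.59 over 5, octamer factors -0.28 over 3, T cell genes -0.21 over 7, macrophage and dendritic cell genes -0.15 over 6, epithelial genes 0.06 over 7 and smooth muscle genes 0.44 over 6. In each of these lists 0 genes passed the edgeR threshold, while 5 genes over all of them had an unadjusted p under 0.05 and DESeq2 called Lyz2 and Cxcl13 lower and Cdx2 and Fabp2 higher. The recombination genes Rag1, Rag2 and Dntt, which act in developing lymphocytes, had too few counts to be tested. Among 6 genes of IgA transport and supply 1 passed. This was Pigr, the epithelial receptor that carries dimeric IgA into the lumen, at 846, 910 and 599 CPM in the Rbm47-IKO pools and 3266, 2218 and 2775 CPM in the control pools (edgeR log2 fold change -1.81, SE 0.21, Benjamini-Hochberg adjusted p = 0.0102). All 3 Rbm47-IKO pools were below all 3 control pools for Pigr.

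V family shares were alike in outline in the 6 pools. The Ighv1 family, the largest with 50 members, held 58.5%, 55.0% and 61.9% of Ighv counts in the Rbm47-IKO pools and 63.0%, 56.5% and 55.0% in the control pools. Its means of 58.5% ± 3.43 and 58.1% ± 4.24 (SD, n = 3) did not differ beyond the spread between pools. Ighv5, with 10 members, came next by the mean over the pools, followed by Ighv3. Ighv13 and Ighv16, each with 1 member by gene ID, had 0 counts in every pool. For Ighv13 this rests on the uncertain name of Ighv13-2. The feature at the M21 position of Ighv13-2, named Ighv6-7 by its ID, had 6, 3 and 16 counts against 1, 11 and 5. At the Ighv totals of these pools 3 counts correspond to 0.167% of the total in the shallowest pool and 0.0552% in the deepest, and shares below these levels rest on fewer than 3 counts.

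**Figure D2:**
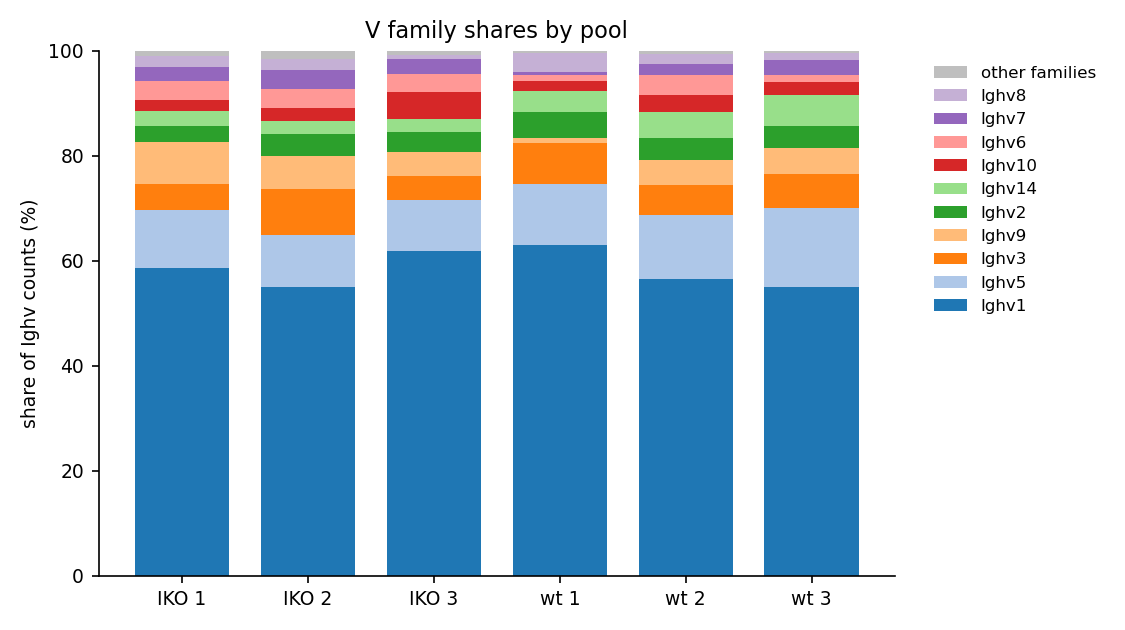
Share of all Ighv counts in percent held by each V family, stacked for each of the 6 pools (IKO, pools labelled Rbm47-IKO). Families with a mean share under 1% are joined as other families. Ighv1 holds from 55.0% to 63.0% in every pool, and the band of Ighv14 is narrower in all 3 Rbm47-IKO pools (2.47% to 2.84%) than in the control pools (4.01% to 5.98%).

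Of the 11 families with tested members, 2 held a smaller share of Ighv counts in every Rbm47-IKO pool than in any control pool, and 1 a larger. Over all genes tested, 11.6% had CPM that were lower and 11.7% CPM that were higher in this way, so that these counts of families are given as a description. Ighv5 held 11.2%, 9.93% and 9.75% against 11.7%, 12.2% and 15.03%, with means of 10.3% ± 0.786 and 13.0% ± 1.77. Without control pool 3 the difference went from -2.72 to -1.71 percentage points. The highest Rbm47-IKO pool and the lowest control pool lay close together in this family. Of its 8 tested members 6 had a log2 fold change below 0 and 2 above. Ighv5-4 alone held 6.83% of Ighv counts in control pool 1, against at most 1.08% in the Rbm47-IKO pools. Ighv5-12 held 2.87% in control pool 3, against at most 0.177%. The Ighv5 share without these members is not given, so the difference may rest on them. Ighv14, with 4 members, held 2.84%, 2.47% and 2.60% against 4.01%, 4.89% and 5.98%, with means of 2.64% ± 0.187 and 4.96% ± 0.983. Here the genotypes were well separated, and the difference of -2.32 percentage points exceeded the spread within either. Ighv4, whose single member is Ighv4-1, held 0.780%, 1.24% and 0.525% against 0.313%, 0.471% and 0.375%. These shares were set by 14 to 56 counts per pool, and counting error alone is large at that depth.

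The remaining families with tested members overlapped between genotypes. Ighv9, with 4 members, held 8.02%, 6.22% and 4.62% in the Rbm47-IKO pools and 0.994%, 4.84% and 4.79% in the control pools, and control pool 1 alone was far below the rest. Ighv6 was low in control pools 1 and 3, at 1.18% and 1.39%, against 3.83% in control pool 2 and 3.51% to 3.73% in the Rbm47-IKO pools. The means of Ighv3 were 6.01% and 6.63%, those of Ighv2 3.72% and 4.45%, those of Ighv7 2.97% and 1.75%, those of Ighv8 1.70% and 2.29% and those of Ighv10 3.21% and 2.57%. With features added whose position, but not ID, matches an Ighv gene, the means of Ighv8 were 3.22% in both genotypes. Ighv11, Ighv12 and Ighv15, without tested members, each held under 0.3% in all 6 pools. The share of Ighv12 was higher in every Rbm47-IKO pool than in any control pool, on 1, 3 and 4 counts against 0, 1 and 2. Family shares computed per kilobase of gene length gave means of 10.1% and 12.7% for Ighv5 and 2.47% and 4.61% for Ighv14.

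Position along the locus was examined because V genes near the joining segments and far from them are brought to recombination differently. The 54 members nearer to the joining segments belong to 15 families and held 39.98%, 44.2% and 38.3% of Ighv counts in the Rbm47-IKO pools and 34.0%, 42.9% and 45.3% in the control pools. The 54 farther ones, of the Ighv1 and Ighv8 families, held the rest. The nearer members averaged 40.8% ± 3.02 and 40.7% ± 5.97 (SD, n = 3), so that usage along the locus did not differ beyond the spread between pools.

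Expression was spread over many V genes, and a few led in each pool. Of the 108 members 100 had a count in at least 1 pool and 71 in every pool, and from 79 to 91 were detected per pool. In Rbm47-IKO pool 1 the leading gene was Ighv5-17 with 127 counts, or 7.07% of Ighv counts (95% Clopper-Pearson interval 5.93% to 8.36%, which covers counting error only). Ighv1-81 led in Rbm47-IKO pools 2 and 3 with 12.1% (11.1% to 13.1%) and 6.67% (5.90% to 7.51%), and in control pools 2 and 3 with 9.46% (8.62% to 10.4%) and 7.52% (6.79% to 8.30%). In control pool 1 Ighv1-39 led with 770 counts, or 14.2% (13.3% to 15.1%), the highest share of a V gene in any pool. The mean leading share was 8.60% ± 3.01 in the Rbm47-IKO pools and 10.4% ± 3.42 in the control pools, and without control pool 1 the order of these means turned (a difference of 0.11 percentage points).

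The effective number of V genes, the inverse Simpson index of the counts, states how many equally used genes would give the same concentration. It was 27.0, 23.8 and 29.6 in the Rbm47-IKO pools and 18.8, 33.8 and 35.6 in the control pools. The control pools thus held both the most concentrated usage and the 2 most even, and the Rbm47-IKO pools lay between them. The means were 26.8 ± 2.90 and 29.4 ± 9.23 (SD, n = 3). Their difference of -2.62 went to 0.49 without control pool 3 and to -7.93 without control pool 1. With every pool thinned to 1796 Ighv counts the difference was -1.33. The 10 leading members held 53.4%, 53.2% and 51.4% in the Rbm47-IKO pools and 59.9%, 42.7% and 43.1% in the control pools. To reach 50% of the counts took 9, 9 and 10 members against 7, 14 and 13. Control pools 2 and 3, the more even ones, were also those with the larger share of Ighg2b.

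**Figure D3:**
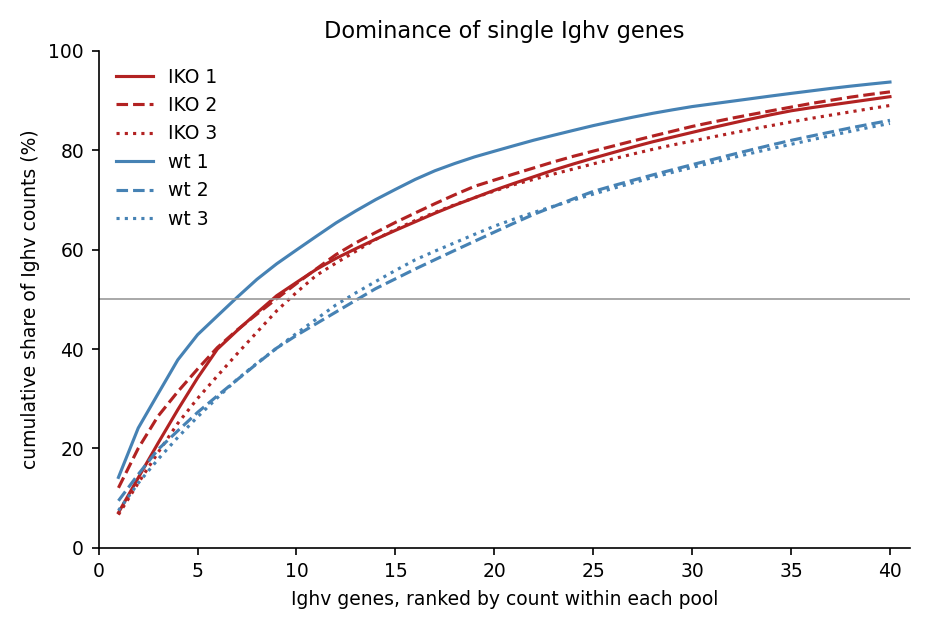
Cumulative share of Ighv counts in percent against the rank of the gene within each pool, for the 40 leading members, red for pools labelled Rbm47-IKO (IKO) and blue for wt. The grey line marks 50%, which control pool 1 reaches with 7 genes, the Rbm47-IKO pools with 9 or 10 and control pools 2 and 3 with 14 and 13.

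Only Ighv1-81 and Ighv1-9 were among the 10 leading members in all 6 pools. A total of 23 members were among the 10 leading in at least 1 pool, and 12 in a single pool. By counts per kilobase averaged over the pools as by counts, Ighv1-81 ranked first, followed by Ighv1-39, Ighv3-6, Ighv5-17, Ighv1-26 and Ighv1-9. Ighv1-81 had 1.79, 14.4 and 7.78 CPM in the Rbm47-IKO pools and 15.9, 11.1 and 9.91 CPM in the control pools. Rbm47-IKO pool 1 was far below all others for this gene, and the remaining 5 pools were interleaved (edgeR log2 fold change -0.62, SE 0.61, Benjamini-Hochberg adjusted p = 0.711). The fold change was -0.15 without Rbm47-IKO pool 1 and -1.36 without Rbm47-IKO pool 2.

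Ighv1-39 had 1.01, 7.74 and 7.41 CPM against 22.6, 4.35 and 5.82 CPM. Control pool 1 was high and Rbm47-IKO pool 1 low, and the log2 fold change of -1.02 (SE 0.82, edgeR Benjamini-Hochberg adjusted p = 0.620) became 0.08 without control pool 1. Ighv3-6 spread from 1.94 to 9.50 CPM in the Rbm47-IKO pools and from 5.88 to 11.0 CPM in the control pools. Ighv5-17, with 3.67, 5.91 and 5.21 CPM against 4.38, 6.24 and 6.31 CPM, varied less between pools (edgeR log2 fold change -0.20, SE 0.25, Benjamini-Hochberg adjusted p = 0.796). Ighv1-9 ranged from 3.64 to 5.44 and from 3.69 to 6.03 CPM, and Ighv1-26 from 3.61 to 7.14 and from 2.99 to 8.09 CPM. Ighv1-55, Ighv1-19 and Ighv9-3 completed the 10 members with the highest mean together with Ighv5-4, and their log2 fold changes were 0.78, 0.60 and 0.12 with overlapping pools.

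Single members also stood out in single pools. In 6 members the highest share, at 1% or more, was at least 3 times that of the next pool. Ighv1-34 held 3.13% in control pool 1 and at most 0.657% elsewhere, and Ighv5-4 held 6.83% there against 2.23% in the next pool. Ighv5-12 held 2.87% in control pool 3 and at most 0.534% elsewhere. Ighv1-66 held 3.70% and Ighv9-2 1.29% in Rbm47-IKO pool 3, against at most 0.993% and 0.404%. Ighv1-84 held 1.89% in Rbm47-IKO pool 1 against at most 0.521%. These 6 peaks thus fell in 4 of the pools and in both genotypes.

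Across the 108 members, which share libraries and sequence, the shares in any 2 pools had a Pearson's r of 0.48 to 0.92 and a Spearman's rho of 0.80 to 0.94. The highest Pearson's r, 0.92, was between control pools 2 and 3, and the next, 0.90, between Rbm47-IKO pool 2 and control pool 2. The lowest, 0.48, was between Rbm47-IKO pool 1 and control pool 1. Pairs of the same genotype had a Pearson's r of 0.67 to 0.92 and pairs of different genotypes 0.48 to 0.90, so that the ranges overlapped.

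Single V genes were then compared between genotypes in the fit over all 16425 genes past the expression filter. Of the 108 members 62 were tested, and they held 97.2% of all Ighv counts. The other 46 had at most 29 counts in any pool, 8 of them 0 in every pool. Ighv1-76 and Ighv2-5 were lower in the Rbm47-IKO pools at the threshold, which makes 2 of 62 against 1.25% of all genes tested. Higher in edgeR were 0 of 62 members, against 1.45% of all genes, and at an unadjusted p under 0.05 there were 17 lower and 1 higher, against 8.21% and 8.57% of all genes. DESeq2 called 7 lower, against 3.51% of all genes, and 0 higher, against 4.06%.

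The distribution of the tested members lay below that of all genes. Their log2 fold changes ran from -3.67 to 1.90 with a median of -0.63, 41 below 0 and 21 above. In 17 of 62 all 3 Rbm47-IKO pools were below all 3 control pools, against 11.6% of all genes tested, and in 0 all were above, against 11.7%. The other 45 overlapped. Rbm47-IKO pool 1 was the lowest of the 6 pools in 41 of the 62 members and in 12 of the 17. Members measured in the same pools are not independent counts. Taken as shares of the Ighv counts of each pool, 7 tested members were lower in all 3 Rbm47-IKO pools and 7 were higher, or 11.3% each way. Shares sum to 100% in each pool, so that lower and higher shares offset each other, and nothing is read from this balance.

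**Figure D4:**
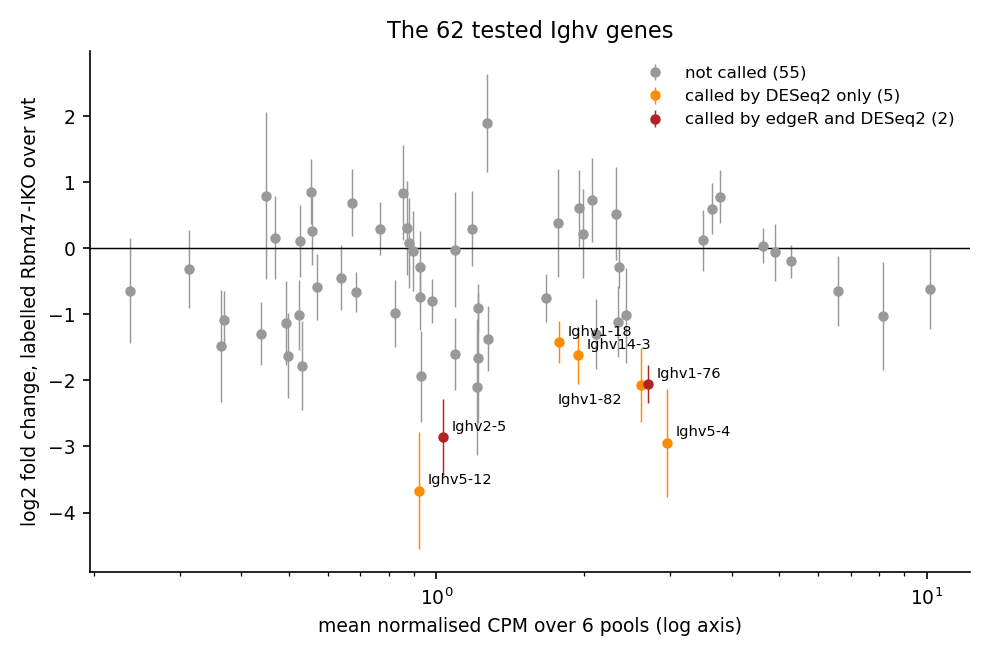
Log2 fold change of the 62 tested members (pools labelled Rbm47-IKO over wt, edgeR) against their mean normalised CPM on a log axis, with bars of 1 standard error. The 2 members called by edgeR and the 5 called by DESeq2 alone all lie below 0, between -1.42 and -3.67.

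Ighv1-76 (chr12:115847881-115848174), an Ighv1 member in the distal part of the locus, had 27, 46 and 37 counts in the Rbm47-IKO pools and 131, 144 and 198 in the control pools. As normalised CPM this was 0.780, 1.21 and 1.13 against 3.85, 3.79 and 5.43. The highest Rbm47-IKO pool was well below the lowest control pool, and the pools within each genotype lay close together. The log2 fold change was -2.06 (SE 0.29, edgeR quasi-likelihood test, Benjamini-Hochberg adjusted p = 0.0164; DESeq2 adjusted p = 4.99e-07). Leaving out 1 pool at a time kept the fold change between -2.19 and -1.87, and the adjusted p rose above the threshold without any of the 3 Rbm47-IKO pools or without control pool 3 (0.0612 to 0.102).

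Ighv2-5 (chr12:113685482-113685915), an Ighv2 member near the joining segments, had 5, 11 and 10 counts against 109, 37 and 46, or 0.144, 0.290 and 0.306 CPM against 3.21, 0.975 and 1.26 CPM. All Rbm47-IKO pools were low, and control pool 1 was the highest of the 6. Its log2 fold change was -2.86 (SE 0.57, edgeR quasi-likelihood test, Benjamini-Hochberg adjusted p = 0.0482; DESeq2 adjusted p = 5.49e-04). It passed in 1 of the 6 fits that leave out a pool, that without control pool 2 (adjusted p = 0.0353). In the other 5 the adjusted p was 0.0725 to 0.219 at log2 fold changes of -3.06 to -2.16. With limma-voom the adjusted p was 0.0774, and a filter of 1 CPM in 3 pools left the gene out of the test.

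Both genes have close relatives, and the bases that tell them apart are shown because reads could be placed on either gene where these bases are not covered. The last 200 bases of each transcript that align without a gap are given 5′ to 3′ (GENCODE M21, GRCm38, minus strand), with the bases that differ between the genes of a pair in capitals.
Ighv2-5 (chr12:113685482-113685681): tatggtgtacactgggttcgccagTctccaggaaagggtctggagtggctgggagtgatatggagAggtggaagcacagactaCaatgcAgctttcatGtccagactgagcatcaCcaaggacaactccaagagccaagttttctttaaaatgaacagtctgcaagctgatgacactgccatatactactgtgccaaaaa
Ighv2-4 (chr12:113653291-113653490): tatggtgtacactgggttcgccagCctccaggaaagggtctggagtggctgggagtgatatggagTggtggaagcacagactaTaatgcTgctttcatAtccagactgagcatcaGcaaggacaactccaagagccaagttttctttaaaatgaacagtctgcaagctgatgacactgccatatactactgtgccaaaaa
Ighv1-76 (chr12:115847881-115848080): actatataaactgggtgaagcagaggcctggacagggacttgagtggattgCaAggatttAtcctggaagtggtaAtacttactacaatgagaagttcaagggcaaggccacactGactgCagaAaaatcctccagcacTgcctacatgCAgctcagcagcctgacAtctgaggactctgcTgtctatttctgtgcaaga
Ighv1-75 (chr12:115833950-115834149): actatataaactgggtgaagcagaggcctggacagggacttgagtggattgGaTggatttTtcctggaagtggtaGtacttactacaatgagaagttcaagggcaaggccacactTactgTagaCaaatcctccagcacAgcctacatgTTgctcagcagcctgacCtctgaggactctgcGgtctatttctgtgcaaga
Ighv2-5 and Ighv2-4 differ at 6 of these 200 bases (97.0% identical) and Ighv1-76 and Ighv1-75 at 12 (94.0%). Ighv2-4, the closest relative of Ighv2-5, had 0 counts in the 3 Rbm47-IKO pools and 3, 1 and 1 in the control pools. Whether reads that fit both genes were counted is not known, and the part of read placement in the difference of Ighv2-5 was not tested. Ighv1-75 had 22, 34 and 20 counts against 52, 37 and 45, also lower in all 3 Rbm47-IKO pools, at a log2 fold change of -0.79 (SE 0.33, edgeR Benjamini-Hochberg adjusted p = 0.286). Of the 50-base windows of Ighv1-76 and Ighv2-5, 81.2% and 70.1% were unique, and of the 100-base windows 100% in both.

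**Figure D5:**
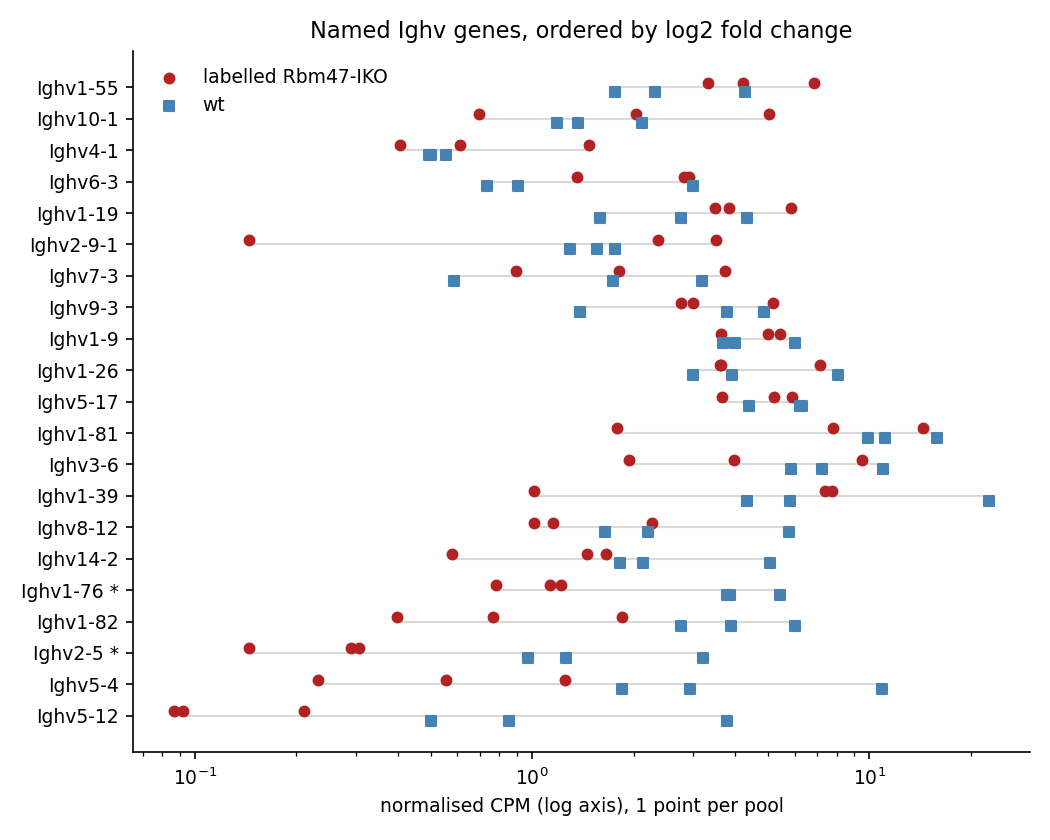
Normalised CPM of the 21 tested members named by the rule, 1 point per pool on a log axis, ordered by log2 fold change with the lowest at the bottom. Asterisks mark Ighv1-76 and Ighv2-5, which passed the edgeR threshold. The red points of Ighv1-76 run from 0.780 to 1.21 CPM and its blue points from 3.79 to 5.43 CPM, while the points of most other genes overlap between genotypes.

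The members with the largest differences among those whose pools did not overlap also included Ighv5-12, Ighv5-4 and Ighv1-82, and these did not pass in edgeR. Ighv5-12 had 3, 8 and 3 counts against 29, 19 and 138, of which control pool 3 holds most (log2 fold change -3.67, SE 0.88, edgeR Benjamini-Hochberg adjusted p = 0.0771; DESeq2 adjusted p = 9.12e-04). Ighv5-4 had 8, 21 and 41 counts against 371, 70 and 107, of which control pool 1 holds most (-2.94, SE 0.82, edgeR Benjamini-Hochberg adjusted p = 0.114; DESeq2 adjusted p = 7.54e-04). Ighv1-82 had 64, 29 and 13 counts against 204, 105 and 142 (-2.07, SE 0.56, edgeR Benjamini-Hochberg adjusted p = 0.107; DESeq2 adjusted p = 0.00335). Without control pool 3 the log2 fold change of Ighv5-12 was -2.33, and without control pool 1 that of Ighv5-4 was -1.81. That of Ighv1-82 was -2.84 without Rbm47-IKO pool 1 and -1.69 without Rbm47-IKO pool 3. DESeq2 also called Ighv14-3, at 21, 44 and 36 counts against 151, 104 and 59, and Ighv1-18, at 31, 47 and 25 counts against 112, 88 and 79, named here after their values were seen.

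No member was called higher by either tool. The only member above 0 with an unadjusted edgeR p under 0.05 was Ighv1-66, named here for that reason after its values were seen. It had 17, 45 and 141 counts against 15, 23 and 20, and Rbm47-IKO pool 3 carried most of the difference (log2 fold change 1.90, SE 0.74, edgeR Benjamini-Hochberg adjusted p = 0.249). Leaving out 1 pool at a time gave 0.66 to 2.36. Relative to the Ighv counts of the same pool, 7 tested members were higher in every Rbm47-IKO pool than in any control pool. These were Ighv1-66, Ighv1-9, Ighv1-19, Ighv1-55, Ighv10-1, Ighv7-1 and Ighv4-1. They made up 11.3% of the tested members, near the 11.7% of all genes tested that were higher in this way by CPM. The share of Ighv1-9 was 7.02%, 4.55% and 4.31% against 3.77%, 3.14% and 3.04%. The 7 tested members whose shares were lower in every Rbm47-IKO pool were Ighv5-4, Ighv5-12, Ighv2-5, Ighv14-3, Ighv1-63, Ighv1-72 and Ighv1-76. They were 11.3% of the tested members as well, against 11.6% of all genes tested that were lower by CPM.

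The leaders of the smaller families had the following levels. Ighv14-2, which led Ighv14, had 0.578, 1.45 and 1.65 CPM against 1.82, 2.13 and 5.08 CPM, with all 3 Rbm47-IKO pools lower (edgeR log2 fold change -1.29, SE 0.53, Benjamini-Hochberg adjusted p = 0.273), and the fold change was -0.68 without control pool 3. Ighv8-12, at 1.16, 2.27 and 1.01 CPM against 5.76, 2.21 and 1.65 CPM, overlapped. Ighv10-1, Ighv4-1, Ighv6-3, Ighv2-9-1 and Ighv7-3 had log2 fold changes of 0.73, 0.69, 0.61, 0.39 and 0.22 with overlapping pools and edgeR adjusted p from 0.576 to 0.928. The fold change of Ighv6-3 was 1.52 without control pool 2 and 0.28 without control pool 1.

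Ighv2-9-1 showed how far a single pool can depart. It had 5 counts in Rbm47-IKO pool 1 against 133 and 77 in the other Rbm47-IKO pools and 53, 49 and 64 in the control pools. Ighv15-2, Ighv11-2 and Ighv12-3, the leaders of the Ighv15, Ighv11 and Ighv12 families, had at most 13, 7 and 4 counts in a pool. They were not tested in the main fit. A fold change between genotypes is therefore not given for them.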

How the data were processed

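Mucosal RNA of 3 pools per genotype was counted per gene. The authors deposited for each pool raw counts with CPM and RPKM derived from them. The CPM and RPKM that the authors deposited were recomputed from the counts, differed by less than rounding and were not used further. The submitters' processing notes name STAR 2.5.1a, featureCounts 1.4.6-p5 of Subread and GRCm38. The use of strand and of reads that fit several genes is not given in the sources used here. How reads shared by near-identical V genes were counted, or whether they were left out, is therefore not known.

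Gene IDs were matched to GENCODE M21 symbols (36723 of 38561). The 16425 genes past filterByExpr were normalised by TMM and tested between genotypes with the quasi-likelihood test of edgeR 4.0.16 in R 4.3.3, two-sided, with the Benjamini-Hochberg adjustment over the whole table and a threshold of 0.05, after a check on simulated counts. DESeq2 1.42.0, limma 3.58.1, other scalings and filters, a replicate block and leaving out each pool were alternatives. An exact permutation test of 3 pools against 3 cannot give a p below 0.1. P-values set the difference between genotypes against the spread between pools of 3 mice, so single mice are not seen. Intervals cover counting error only. Depth was 31560320 to 38951830 counts per pool. Figures and shares were made with Python 3.11.15.

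Members were all 108 genes with an Ighv symbol, and sums and shares over them were not tested. Named with values were members past the threshold, the 3 with most counts in each pool, the 10 with the highest mean CPM, the leader of each family, and, among members with no overlap of pools between genotypes, the 5 most changed in each direction. Of the marker lists, the constant genes, Jchain, Pigr, Cd79a and those past the threshold were named, and other genes after their values were seen. The members and lists were chosen with earlier results of these data known.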

Additional observations from a re-analysis of the deposited data

How the results depend on the processing

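The number of tested members called lower by edgeR was 2. It was 2 with RLE size factors, with library size alone and with TMM factors computed without immunoglobulin genes, and 3 with no filter on low counts. DESeq2 called 7, a filter of 1 CPM in 3 pools 1, and limma-voom 1. Leaving out 1 pool at a time gave 0 to 3, with 0 without Rbm47-IKO pools 1 or 2 or without control pool 3. In those 3 fits 9 of 68, 17 of 67 and 10 of 63 tested members were lower at an unadjusted p under 0.05. At the same threshold 4, 1 and 1 were higher. Over all genes those 3 fits called 32, 0 and 11 genes at the adjusted threshold, against 443 with all pools. Whether the loss was particular to the members was not tested. Members called higher were 0 in all these fits. The pool number as a replicate block gave 0 lower calls and 100 calls over all genes. At an unadjusted p under 0.05, 17 of 62 members were lower and 1 higher with this block. With it the adjusted p was 0.0530 for Ighv1-76 and 0.124 for Ighv2-5, at log2 fold changes of -2.06 and -2.67. With limma-voom and with the 1 CPM filter the member left was Ighv1-76. Deviations of same-numbered pools from their group means had correlations of 0.41, 0.00 and -0.28, so the pools share only a number. Leaving out the leading gene of each pool moved the difference in the Ighv5 share from -2.72 to -5.76 percentage points. This follows from its construction, since the leader is an Ighv5 gene, Ighv5-17, in Rbm47-IKO pool 1 and an Ighv1 gene in the other 5 pools. Without 1 pool the fold change crossed 0 in 20 of the 62 tested members, 0 of them called. Among the named members, Ighv2-9-1 was -0.46 with limma-voom, -0.16 with the replicate block and -0.30 to 0.93 without 1 pool. Without 1 pool, Ighv4-1 ranged from -0.023 to 1.02, Ighv9-3 from -0.25 to 0.50, Ighv7-3 from -0.45 to 0.88, Ighv10-1 from -0.19 to 1.18, Ighv1-9 from -0.091 to 0.29, Ighv1-26 from -0.46 to 0.47, Ighv6-3 from 0.28 to 1.52, Ighv1-81 from -1.36 to -0.15, Ighv1-19 from 0.31 to 1.01, Ighv1-55 from 0.44 to 1.24, Ighv5-17 from -0.35 to -0.024 and Ighv1-39 from -1.40 to 0.084. The cause was not tested. Adding features that overlap an Ighv gene by position, an alternative chosen after seeing the data, gave a log2 ratio of summed Ighv CPM of -0.50. The filter on low counts kept 46 members out of the main test. With no filter 100 members were tested, and 21 were lower and 1 higher at an unadjusted p under 0.05. For this fit, the block and the fits without 1 pool, the share of all genes at an unadjusted p is not given. Nothing is therefore read from these counts of members.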
